A study of Mus musculus with 3 samples.

Results

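Control embryonic stem cells were profiled as single cells in wells on 3 WaferGen chips, called plates 1, 2 and 3 here. They are the wells that the report deposited with each plate gives as type 1, in which at least 1000 genes were detected and less than 20% of unique molecular identifiers (UMIs) came from the mitochondrial genome. Of 1549 control wells, 1513 met this rule (617, 558 and 338 on plates 1, 2 and 3), and they made up part of the 4413 wells kept in the whole series. Of the 36 left out, 26 had too few genes and 10 had only too high a mitochondrial share. The fewest genes in a kept well were 1010, and the most in a well left out for too few were 937. The highest mitochondrial share kept was 19.9%, and the lowest left out for that share alone was 20.3%.

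The control cells are labelled Mll1fl/fl. Mll1, now named Kmt2a, encodes a methyltransferase of histone H3 lysine 4, and its loxP-flanked alleles can be deleted by Cre recombinase. All 3 cell types of the series share the Mll1fl/fl and Cre-ER TM background on C57BL/6J and are blastocyst-derived embryonic stem cells. The other types are Mll1-/- cells, called deleted, with 1310 kept wells, and cells under Mll1 inhibition, called inhibited, with 1590. The sources used here do not name the inhibitor, its dose, the length of treatment, the exons removed, the number of lines or clones, or whether control cells were given the agent that activates Cre-ER. Nothing says that the plates held separate cultures, so SDs and p-values over the 3 plates reflect plate-to-plate spread only, which may be technical. Control wells came from source wells A1, B1 and C1 on plates 1 and 2, and from D1 and D2 on plate 3, which held deleted cells on plates 1 and 2. Cell type and source well therefore cannot be told apart within a plate.

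Embryonic stem cells are the cultured counterpart of the early epiblast. Pou5f1 (Oct4), Sox2 and Nanog are transcription factors that act together on enhancers to hold cells in the pluripotent state, and LIF, BMP, Nodal and FGF signals maintain that state or release cells from it. In serum cultures, Nanog, Zfp42 and other genes are known to vary from cell to cell.

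Kept control wells held a median of 41125, 35460 and 42339 UMIs and of 4246, 3949 and 4572 genes on plates 1, 2 and 3. The range over all of them was 1706 to 512183 UMIs. The median mitochondrial share was 3.11, 3.06 and 3.18%. Summed over wells, the plates gave 43773924, 38660757 and 25914860 UMIs. Levels are given as CPM, the UMI counts of these sums scaled to a common total, as mean ± SD over 3 plates. Shares of wells with a UMI and all correlations use wells thinned at random to 10000 UMIs, which left 527, 471 and 286 wells and took out those with fewer. Barcodes recur on plates 1 and 2, where 185 were shared by kept control wells. The other pairs of plates shared 0. In 15 wells without cells the median was 165 UMIs, with 11 Dppa5a UMIs in all and 0 of Pou5f1, Sox2 and Tdgf1.

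The 4 defining markers were present on every plate, and their detection differed widely. Dppa5a encodes a small RNA-binding protein of pluripotent cells and lies at chr9:78367052-78368177 on the minus strand (GRCm38). It stood at 5577, 5416 and 5728 CPM on plates 1, 2 and 3 (5574 ± 156), and 99.6, 99.2 and 100% of thinned wells had a UMI. Tdgf1, at chr9:110939603-110946158 (minus strand), encodes Cripto, a co-receptor for Nodal. It stood at 300.4, 300.7 and 324 CPM and was detected in 77.6, 72.2 and 77.3% of wells (95% exact intervals 73.8 to 81.1, 67.9 to 76.2 and 72.0 to 82.0%). Levels of these genes were close on all plates, with no plate standing apart. Sox2, at chr3:34650405-34652461 (plus strand), stood at 146.2, 119.6 and 151 CPM, lowest on plate 2, and was detected in 53.5, 50.1 and 54.2% of wells. Pou5f1, at chr17:35506018-35510772 (plus strand), stood at 55.15, 52.97 and 49.05 CPM and was detected in 39.3, 40.3 and 38.5% of wells. The intervals cover counting error only.

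Per kilobase of exons, the order of these genes' levels was Dppa5a (9005 CPM per kb), Tdgf1 (118), Sox2 (67.6) and Pou5f1 (23.3), and each step exceeded the SD over plates. No source used here states the transcript end that was counted, so the scaling by length may not suit these counts. Other annotated genes also hold 57.2% of the 31-base subsequences of Dppa5a, 12.6% of Tdgf1's, 0.888% of Sox2's and 14.2% of Pou5f1's. How reads matching several genes were assigned is not stated, and the levels and their order may depend on it. A well without a Pou5f1 UMI after thinning need not lack its RNA. In the unthinned wells the share with a UMI was 75.4, 71.0 and 71.6%. With at least 2 UMIs required it was 12.4% as a mean over plates. Pou5f1's variance over thinned wells was 1.343, 1.324 and 1.398 times its mean, so its counts spread little more than a Poisson count would. Genes of unrelated adult organs, which measure the background, summed to 3.97, 5.02 and 8.45 CPM over 12 measured genes. Myh6, a cardiac myosin heavy chain, gave 3.85 ± 1.73 CPM of that.

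**Figure D1:**
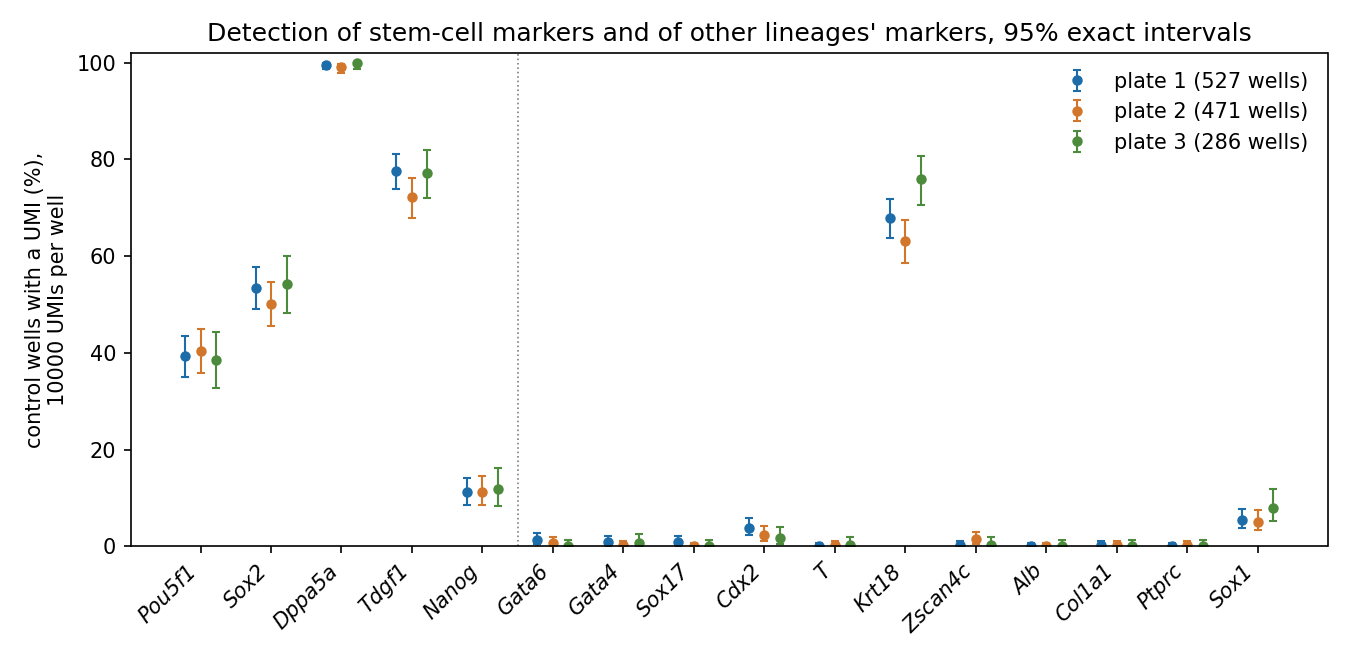
The share of thinned control wells with at least 1 UMI, in percent, is plotted for stem cell markers (left of the dotted line) and markers of other lineages (right) on the 3 plates, with exact 95% intervals as bars. Dppa5a lies at 99.2 to 100%, Tdgf1 at 72.2 to 77.6% and Pou5f1 at 38.5 to 40.3%.

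The remaining pluripotency regulators were mostly detected at low depth per well. Of 18 transcription factors in the list, 16 exceeded 10 CPM and 4 were detected in at least 50% of thinned wells. Trim28, a corepressor that silences retroviral elements, reached 258 CPM and 81.5% of wells. Zfp42 (Rex1), a marker of the naive state, stood at 148.2, 119.9 and 150 CPM and was detected in 54.1, 49.5 and 58.7% of wells. Nanog stood at 25.79, 19.01 and 23.23 CPM and was detected in 11.2, 11.3 and 11.9% of wells, evenly over plates. Klf4 (26.7 CPM), Esrrb (34.4 CPM), Klf2 (64.5 CPM) and Klf5 (104 CPM), which maintain naive pluripotency, were each detected in under 50% of wells. Prdm14, a repressor of FGF signalling, was at 0.278 CPM and was detected in 0.321% of wells. Of 12 pluripotency-associated genes, Mkrn1, an E3 ubiquitin ligase gene, stood at 1734, 1872 and 1752 CPM. L1td1, which encodes an RNA-binding protein, stood at 675.6, 605.3 and 586 CPM. Both were detected in over 90% of wells on every plate, as Dppa5a was, and no other of the 12 was. Mkrn1 overlaps the annotated Gm10244, so reads of the pair may not be told apart.

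Among signalling genes, Gdf3 (103 CPM), Nodal (44.2 CPM) and Fgf4 (44.6 CPM), all secreted factors of the epiblast, were present, while the Nodal targets Lefty1 and Lefty2 were at 1.19 and 0.721 CPM. The phosphatase gene Dusp9 (97.9 CPM) and the ERK-responsive Etv5 (48.4 CPM) stood beside Spry4 (20.4 CPM). The LIF pathway's receptor gene Lifr was at 10.4 CPM, Stat3 at 19.8 CPM and its feedback inhibitor Socs3 at 3.89 CPM. Id1 and Id2, targets of BMP, were at 105 and 174 CPM and were detected in 44.3 and 49.7% of wells. Fgf5, a growth factor of the primed epiblast, was at 0.454 CPM. Of 12 other genes of the formative and primed epiblast, 8 exceeded 10 CPM. They included the de novo DNA methyltransferase genes Dnmt3a and Dnmt3b at 62.2 and 87.1 CPM, the tight junction gene Cldn6 at 51.2, the transcription factor gene Pou3f1 at 26.7 and Otx2 at 10.9 CPM. The transcription factor genes Zic2 and Sox3 were at 0.348 and 0.235 CPM.

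Markers of other lineages that the cultures could hold differed widely in level within their lists, with structural genes the highest in the lists of primitive endoderm, trophectoderm, fibroblasts and neural cells. For primitive endoderm, Gata4 was at 1.57 CPM, Gata6 at 1.06 and Sox17 at 0.538 CPM, while the matrix gene Sparc stood at 361.5, 389.3 and 334 CPM. For trophectoderm, Cdx2 was at 2.93 CPM and Elf5 at 0.0281 CPM, and the transcription factor genes Ascl2, Tfap2c, Tead4 and Gata3 at 36.3, 10.6, 10.5 and 9.38 CPM. The keratin genes Krt18 and Krt8 were at 599 ± 64.9 and 180 ± 30.8 CPM. Among neural genes, the transcription factor genes Neurod1, Sox1 and Pax6 were at 17.3, 11.3 and 3.94 CPM, detected in 10.9, 6.21 and 1.92% of thinned wells, and the filament gene Nes was at 52.0 CPM. For mesoderm, T was at 0.376 CPM and Mixl1 at 0.135 CPM. For fibroblasts, which serve as feeder cells in many stem cell cultures, Col1a1 was at 0.369 CPM and Col3a1 at 0.0685 CPM. Lum was at 0, and Vim, an intermediate filament gene with broad expression, was at 109 CPM. For blood, Ptprc was at 0.0474 CPM, and both adult beta-globin genes measured were at 0. Summed levels of these lists were 852 to 1024 CPM over plates for trophectoderm, 440 to 560 for primitive endoderm, 93.8 to 129 for neural genes, 10.8 to 13.2 for mesoderm, 160 to 193 for fibroblasts and 7.54 to 14.2 for blood and endothelium. Wells with 20 or more thinned UMIs of the trophectoderm list numbered 61, 47 and 32 on plates 1, 2 and 3, and those of the primitive endoderm list 15, 14 and 6.

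Genes of the two-cell-like state, a rare state in stem cell cultures that resembles the embryo at genome activation, were seen in few wells. At least 1 UMI of the 13 measured genes was found in 23 of 617, 29 of 558 and 17 of 338 wells before thinning. Plate 2 stood apart in the amount: 1870 UMIs against 48 and 22 on plates 1 and 3, and 46.4% of the plate's UMIs were in 1 well. Zscan4d, of a family that acts in telomere maintenance, stood at 0.251, 11.1 and 0.0772 CPM, so its level rests on plate 2. Zscan4 and Usp17l genes are near-identical copies, so values of single members are uncertain.

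The control cells expressed 13562, 13303 and 13461 genes at 1 CPM or more on plates 1, 2 and 3, of which 12309 passed on every plate. Detection in a single well was far narrower. After thinning, 1644, 1657 and 1755 genes had a UMI in at least 50% of wells and 480, 469 and 506 in at least 90%. Cytosolic ribosomal protein genes took 6.64 ± 0.12% of UMIs, the mitochondrial genome 3.65 ± 0.042% and processed pseudogenes 11.3 ± 0.267%. The 10 genes with most UMIs held 8.29% and the 100 with most 27.1%.

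Outside ribosomal protein and mitochondrial genes, the highest mean CPM was that of Malat1, a nuclear noncoding RNA, with 20117, 14248 and 18507 CPM on plates 1, 2 and 3. Plate 2 was lowest for it, and for Gm42418, at 21311, 11824 and 13091 CPM, plate 1 was highest and above Malat1. Ubb, a polyubiquitin gene, stood at 6719, 8774 and 7464 CPM. Mt1, a metallothionein gene that binds zinc and copper, stood at 6058, 5504 and 5941 CPM, and Mt2, its neighbour, at 1770, 1627 and 1846 CPM. Relative to their means, both varied less over plates than Malat1 and Gm42418 did. The chaperone genes Hsp90aa1 (4780 ± 168 CPM) and Hsp90ab1 (3344 CPM) were among the same 15 genes. Gm15427 (5423 CPM) and Gm9843 (3836 CPM) in that set are annotated as processed pseudogenes, and no source used here states how reads matching several genes were assigned.

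Proliferation genes were measured in 2 lists. Of 28 genes of G2 and mitosis all exceeded 10 CPM, and 16 were detected in at least 50% of thinned wells. Birc5 (survivin), which guards chromosome segregation, led with 574 CPM and 93.8% of wells. Top2a, the topoisomerase of mitotic chromosomes, stood at 395.1, 392.5 and 388.3 CPM, and Ccnb1, the mitotic cyclin B1, at 177.3, 220.2 and 231.4 CPM. Of 23 S phase genes, 22 exceeded 10 CPM and 9 were detected in at least 50% of wells, among them Pcna at 313 CPM in 82.6% of wells. The exception was Fen1 at 0.595 CPM. Of its 31-base subsequences 79.6% also occur in other annotated genes, and the part of this in its level was not tested. Of 14 genes of the p53 list, 13 exceeded 10 CPM, with Bax, an apoptosis effector, at 243 CPM and Cdkn1a, the inhibitor p21, at 201 CPM. The highest genes of the glycolysis list were Aldoa (1060 CPM), Ldha (822 CPM), Pkm (572 CPM) and Eno1 (512 CPM), all detected in over 90% of wells. Gapdh was at 76.4 CPM, and 28.1% of its 31-base subsequences also occur in other annotated genes. The part of this in the Gapdh level was not tested.

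Chromatin genes were detected in a minority of wells for most members. Ash2l (242 CPM) and Dpy30 (987 CPM), shared core subunits of H3K4 methyltransferases, were the only members of that list of 13 detected in at least 50% of wells. Kmt2a itself, at chr9:44803355-44881296 (minus strand), stood at 51.03, 49.61 and 56.18 CPM in control cells. Deleted cells had 62.9, 50.3 and 39.9 CPM, a range that overlaps the control range. Inhibited cells had 39.5, 41.5 and 46.6 CPM, below control cells on every plate, and this difference was not tested on its own. The exons removed are not stated, and a UMI from outside them would count in deleted cells too, so this value does not check the labels. Of the Polycomb genes, Eed (296 CPM), Jarid2 (271 CPM), Mtf2 (187 CPM) and Ezh2 (139 CPM) were detected in over 50% of wells. Among imprinted genes, Peg3 (412 CPM) and Phlda2 (210 CPM) were detected in 80.0 and 48.2% of wells, and the noncoding Meg3 in 0.708%.

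Some genes differed between control wells far more than others of like mean. Excess variance is the log2 ratio of variance to mean over thinned wells, minus the running median of genes of like mean, and genes were ranked by its lowest value over the 3 plates among 2868 genes with at least 0.5 thinned UMIs per well on every plate. The lowest-plate value was 4.31 for Malat1, 3.34 for Krt18, 3.19 for Gm26707, 2.98 for Gm42418, 2.81 for Dppa5a and 2.76 for Arhgef40. Pou5f1 was at -0.93, below genes of like mean. Krt18 encodes a keratin of simple epithelia; its median was 1, 1 and 2 UMIs per thinned well, while its highest well held 87, 347 and 210. The 5% of wells with most Krt18 UMIs held 46.5, 60.4 and 57.5% of them. Krt18 was thus unevenly spread between wells on every plate. Gm26707 was more extreme, detected in 11.6, 10.8 and 12.9% of wells, with 92.0, 91.0 and 87.6% of UMIs in the top 5%. Dppa5a varied in another way: nearly every well had it, at a median of 41, 44 and 46.5 UMIs, and the wells at the tenth and ninetieth percentiles held 5 and 127, 5 and 120, and 7 and 129.5. Krt8, Lgals1, Lgals3 and Mt1 were also among the 15 most variable genes, as were mt-Rnr2 and mt-Cytb of the mitochondrial genome, whose share enters the rule for keeping wells.

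Few gene pairs reached a high correlation between control wells. Over all pairs of the 2868 genes, which number 4111278, 297 had a Pearson r over 0.3 on all 3 plates, or 0.00722%. The correlations are of log2(thinned UMIs + 1) across wells within each plate, over 527, 471 and 286 wells, and are descriptions with no p, since wells of a plate share library, chip and source wells. At a threshold of 0.25, 600 pairs (0.0146%) were positive and 77 (0.00187%) were below -0.25 on every plate. Of the 2868 genes, 2426 had no partner over 0.25. Among the 297 pairs, 157 shared a 31-base subsequence between their transcripts, 152 involved a pseudogene and 29 lay within the mitochondrial genome. The pair count moves with depth: on single plates, over the 12931155 pairs of a wider set of genes, 758, 611 and 1617 exceeded 0.3 at 10000 UMIs, 258, 245 and 511 at 5000 and 1862, 1430 and 4239 at 20000. Of the 297, 100 pairs that were neither within the mitochondrial genome nor with a ribosomal protein gene or its copy shared no such subsequence. They still include mt-Cytb, mt-Nd4 and mt-Nd1, each with the pseudogene Gm13341, and pairs with other pseudogenes, such as Mkrn1 with Gm9800.

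Dppa5a shows what the first kind of pair is. Its strongest partner was Gm6083 at r = 0.820, 0.859 and 0.821 on plates 1, 2 and 3, the highest lowest-plate value of any pair. The coding part of Dppa5a and the matching stretch of Gm6083 differ at 11 of 357 bases (96.9% identity), and the first 120 bases are shown because they hold long runs that are identical in both genes. Capitals mark the 5 mismatches in that stretch. Both were read from the GENCODE M21 transcripts (GRCm38), 5′ to 3′.

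Dppa5a: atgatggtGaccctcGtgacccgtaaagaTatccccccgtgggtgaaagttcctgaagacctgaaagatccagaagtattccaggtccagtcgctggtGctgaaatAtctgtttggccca
Gm6083: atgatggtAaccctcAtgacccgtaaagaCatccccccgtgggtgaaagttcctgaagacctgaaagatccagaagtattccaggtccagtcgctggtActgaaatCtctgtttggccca

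Where such pairs are taken aside, Dppa5a covaried with Dnmt3l, whose protein assists the de novo DNA methyltransferases, at 0.323, 0.288 and 0.364, and with Mkrn1 at 0.324, 0.201 and 0.321. It was lowest against Lgals1, which encodes galectin-1, at -0.323, -0.316 and -0.319. Of other copies, Ubb and Gm1821 had r of 0.812, 0.724 and 0.848, and Hsp90aa1 and Gm12346 0.709, 0.714 and 0.725. Mt1 and Mt2, metallothionein genes whose transcripts share no 31-base subsequence, had 0.591, 0.594 and 0.632.

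The defining transcription factors covaried weakly. Pou5f1 and Sox2 had r of -0.02, 0.09 and 0.06 on plates 1, 2 and 3, so their sign was not the same on all. Sox2 and Nanog had 0.121, 0.112 and 0.150, and Nanog and Zfp42 0.029, 0.017 and -0.0042. Over the 15 transcription factors frequent enough to be paired, the median r was 0.034, 0.035 and 0.025, beside 0.0017, 0.0021 and 0.0012 over all pairs. Pou5f1 averaged under 1 thinned UMI per well, and the part of counting noise in its r values was not tested. Tdgf1 had clearer partners. It covaried with Mkrn1 at 0.292, 0.324 and 0.385, with Chchd10, a mitochondrial protein gene, at 0.288, 0.326 and 0.252 and with Pou5f1 at 0.098, 0.145 and 0.205. Its lowest values were with Krt18, at -0.315, -0.335 and -0.321, and with Krt8, at -0.310, -0.331 and -0.312.

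Krt18 had the most partners of any abundant gene. It had r over 0.25 on all 3 plates with 29 of 2867 genes (1.01%) and r under -0.25 with 10 (0.349%). Krt8, which encodes the keratin that pairs with keratin 18 in filaments, followed it most closely at 0.708, 0.658 and 0.731. It also shares 36.0% of its 31-base subsequences with other genes, and Krt18 11.4%. Anxa2, a membrane-binding annexin gene, had 0.530, 0.498 and 0.577 with Krt18. Cryab, a small heat shock protein gene, had 0.509, 0.475 and 0.521, and Lgals3, encoding galectin-3, 0.472, 0.524 and 0.512. On the negative side stood Chchd10, at -0.433, -0.472 and -0.442, and Mkrn1, at -0.471, -0.429 and -0.456. The RNA-binding L1td1 had -0.310, -0.348 and -0.359. Mkrn1 and L1td1 belong to the pluripotency-associated list, but other genes at like values do not. Npm1 had -0.466, -0.332 and -0.428, and the pseudogene Gm9800 had -0.447, -0.350 and -0.501.

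**Figure D2:**
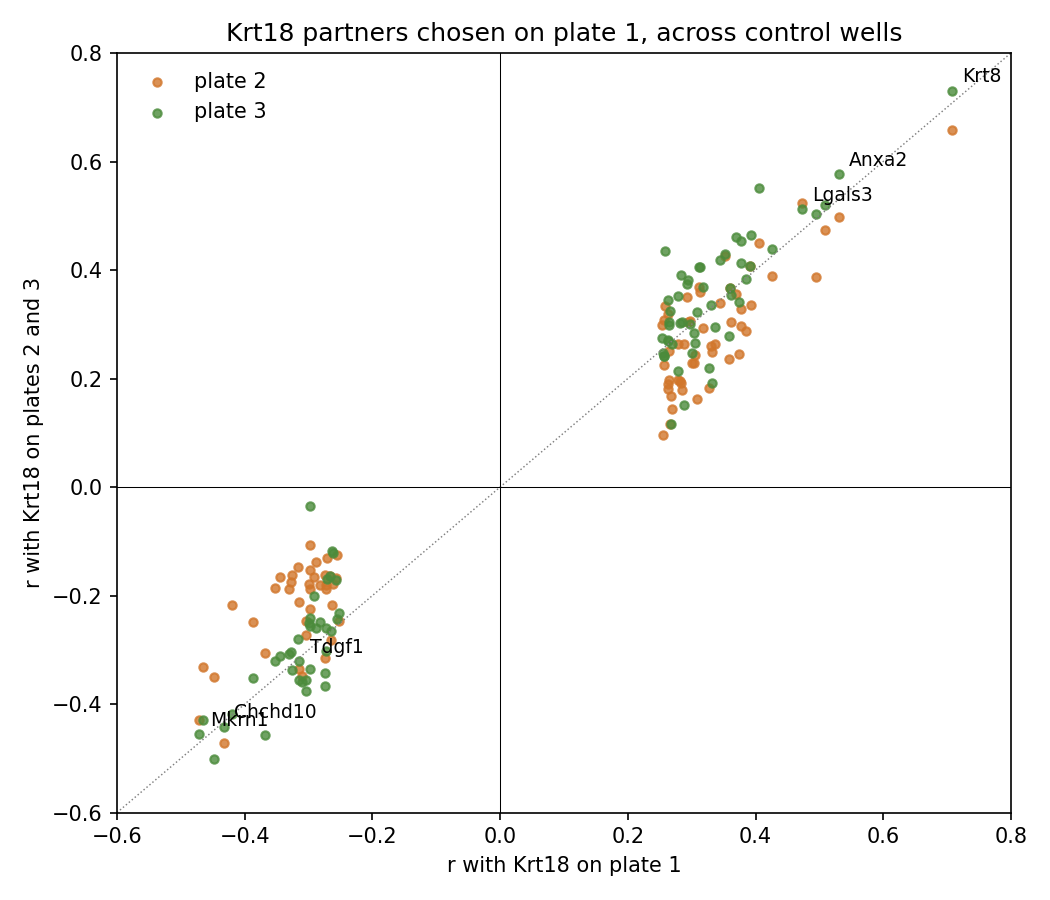
Pearson r with Krt18 across thinned control wells is plotted on plates 2 (orange) and 3 (green) against plate 1, 2 points per gene, for the 52 positive and 38 negative partners chosen on plate 1; the dotted line marks equal values. All points lie in the quadrants of equal sign, with Krt8 highest at 0.658 and 0.731.

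The partners chosen on plate 1 alone held their sign on the plates that the choice did not use. This way of choosing was itself set after the values had been seen, so plates 2 and 3 are not a blind check. With r of at least 0.25 in size on plate 1, 52 genes were positive and 38 negative. All 52 were positive on plates 2 and 3, with medians of 0.290 and 0.343, and 29 of them were over 0.25 on both. All 38 were negative there, with medians of -0.19 and -0.31, and 10 were under -0.25 on both. In deleted cells the 52 genes had median r with Krt18 of 0.315, 0.350 and 0.266. Inhibited cells gave 0.231, 0.285 and 0.245. For the 38 genes the medians were -0.26, -0.26 and -0.27 in deleted cells, with -0.20, -0.23 and -0.21 for the inhibited type. Both medians thus had the same sign in all 3 types on every plate, and whether its size differs between them was not tested.

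Promoters of genes on both sides are shown because the genes moved together between wells. They are bases upstream of the RefSeq start (GRCm38.p6), at most 250, cut where a GENCODE exon of the same gene begins, and given 5′ to 3′ on the gene's strand. Krt18 is at chr15:102027966-102028179 (plus), Anxa2 at chr9:69453433-69453619 (plus), Chchd10 at chr10:75932880-75933129 (plus) and Tdgf1 at chr9:110946159-110946408 (minus). Capitals mark matches to TGACTCA or its reverse complement TGAGTCA, the site of AP-1 factors, and to ATGCAAAT or its reverse complement ATTTGCAT, the octamer bound by POU factors.

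Krt18: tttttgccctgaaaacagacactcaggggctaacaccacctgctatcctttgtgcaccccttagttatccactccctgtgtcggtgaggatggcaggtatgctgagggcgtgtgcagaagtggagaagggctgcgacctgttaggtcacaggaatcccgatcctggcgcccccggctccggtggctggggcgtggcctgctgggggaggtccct
Anxa2: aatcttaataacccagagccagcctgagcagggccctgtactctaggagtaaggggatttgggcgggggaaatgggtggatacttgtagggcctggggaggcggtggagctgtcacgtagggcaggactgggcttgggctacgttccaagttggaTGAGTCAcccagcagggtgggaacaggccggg
Chchd10: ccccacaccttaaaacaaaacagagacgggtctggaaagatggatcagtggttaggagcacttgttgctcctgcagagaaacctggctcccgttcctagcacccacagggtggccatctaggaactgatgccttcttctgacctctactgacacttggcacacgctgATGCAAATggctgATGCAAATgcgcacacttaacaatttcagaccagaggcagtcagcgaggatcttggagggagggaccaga
Tdgf1: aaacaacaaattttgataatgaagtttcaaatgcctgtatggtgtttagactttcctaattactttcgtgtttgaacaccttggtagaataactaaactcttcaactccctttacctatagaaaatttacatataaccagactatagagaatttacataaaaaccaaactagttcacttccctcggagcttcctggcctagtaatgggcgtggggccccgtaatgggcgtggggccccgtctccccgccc

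The Anxa2 stretch holds TGAGTCA with its first base 95 bases upstream of the RefSeq start, and the Chchd10 stretch holds ATGCAAAT at 83 and 70 bases upstream. Among all 32851 promoters of 250 bases, TGACTCA on either strand was in 4.46%, ATGCAAAT in 1.6% and CCAAT or its reverse complement ATTGG, the NF-Y box, in 33.8%. Of the 38 positive partners with a promoter in the table, 4 held TGACTCA (10.5%: Anxa2, Clic1, S100a11 and Myl12a), 0 the octamer and 9 CCAAT (23.7%). Of the 28 negative partners with one, 1 held TGACTCA (Mt2), 1 the octamer (Chchd10) and 11 CCAAT (39.3%). All these counts used the full 250 bases, without the cut made for the stretches shown. The RefSeq start can lie far from the GENCODE start, by 6109 bases for Lgals3, which is among the positive CCAAT holders. A match is a description of letters and no evidence of binding. Matches can overlap, though none do in the stretches shown, and each motif was counted on its own.

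To show the sizes, wells were taken from the ends of the Krt18 range: 125, 99 and 69 wells with 5 or more thinned Krt18 UMIs and 169, 174 and 69 with 0. This is a range and no cell type, since 233, 198 and 148 wells lay between, and 50, 45 and 40 held 4 to 6 UMIs. Wells at the high end averaged 7.22, 6.04 and 8.20 Krt8 UMIs, against 0.456, 0.402 and 0.377 at 0. Anxa2 averaged 4.06, 5.02 and 4.10 against 0.675, 0.776 and 0.536. Both were higher at the high end on every plate. Tdgf1 averaged 1.62, 1.26 and 1.90 against 3.64, 3.94 and 3.42, Mkrn1 8.64, 11.4 and 10.2 against 19.19, 22.31 and 22.03, and Dppa5a 33.7, 37.8 and 40.2 against 67.9, 63.6 and 62.8. Sox2 averaged 0.928, 1.01 and 0.681 against 1.69, 1.5 and 1.33. These 4 genes were lower at the high end on every plate, and Dppa5a was still detected there in 100% of wells. Pou5f1 averaged 0.488, 0.404 and 0.449 against 0.639, 0.678 and 0.493, with little difference in mean on plate 3. Its share of wells with a UMI was 33.6, 28.3 and 26.1% against 40.8, 45.4 and 37.7%, lower at the high end on every plate. Nanog averaged 0.240, 0.182 and 0.261 against 0.331, 0.172 and 0.188, so its mean was lower at the high end on plate 1 alone. Wells with a Nanog UMI made up 8, 6.06 and 8.7% at the high end and 13.61, 9.2 and 13.04% at 0. This share was lower at the high end on every plate. Cdx2, the defining trophectoderm factor, averaged 0.032, 0.0303 and 0 UMIs at the high end and 0.0533, 0.0287 and 0.0145 at 0. It had a UMI in 2.4, 2.02 and 0% of wells at the high end and in 5.33, 2.3 and 1.45% at 0. These counts are too few to compare the ends, and the other trophectoderm transcription factors were not included in the split.

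Total depth before thinning moved with the split. Its median was 41500, 43687 and 43474 UMIs at the high end and 75285, 50812 and 76937 at 0, and its part in these differences was not tested. Without the shallowest 50% of thinned wells, the median r within the trophectoderm list was 0.247, beside 0.242 with all of them. Centred within source wells it was 0.243. These values cover the trophectoderm list only, and the differences of the split were not computed again at like depth.

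**Figure D3:**
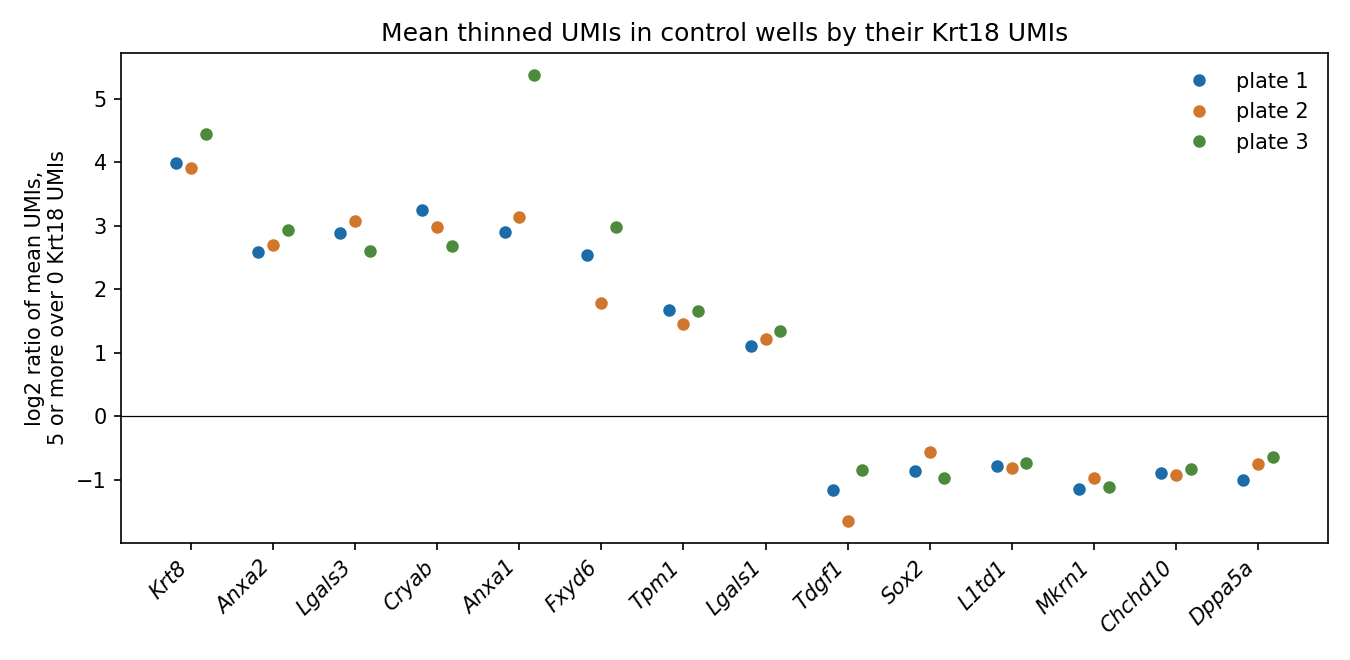
The log2 ratio of mean thinned UMIs in control wells with 5 or more Krt18 UMIs over those with 0 is plotted per gene and plate, as points. Krt8 lies near 4 on every plate, and Dppa5a, Mkrn1 and Tdgf1 lie below 0 on every plate.

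Summed lists largely restate these pairs, since most UMIs of the trophectoderm list are Krt18 and Krt8, and the adhesion list holds the Krt18 partners Anxa2, Lgals3, Lgals1 and S100a11. The pluripotency-associated list, most of whose UMIs are Dppa5a and Mkrn1, had r of -0.53, -0.46 and -0.47 with the adhesion and cell surface list, and -0.47, -0.33 and -0.41 with the trophectoderm list. Trophectoderm and adhesion lists had r of 0.561, 0.526 and 0.649, and the primitive endoderm and adhesion lists 0.423, 0.327 and 0.412. The transcription factor list and the pluripotency-associated list had 0.326, 0.240 and 0.225. Of 5 frequent genes in the trophectoderm list the median pair had r of 0.255, 0.140 and 0.332, while 16 adhesion genes had 0.137, 0.093 and 0.107. Those 5 were Krt7, Krt8, Krt18, Krt19 and Ascl2, a transcription factor of trophoblast, while Cdx2 and Elf5 were too rare to enter.

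**Figure D4:**
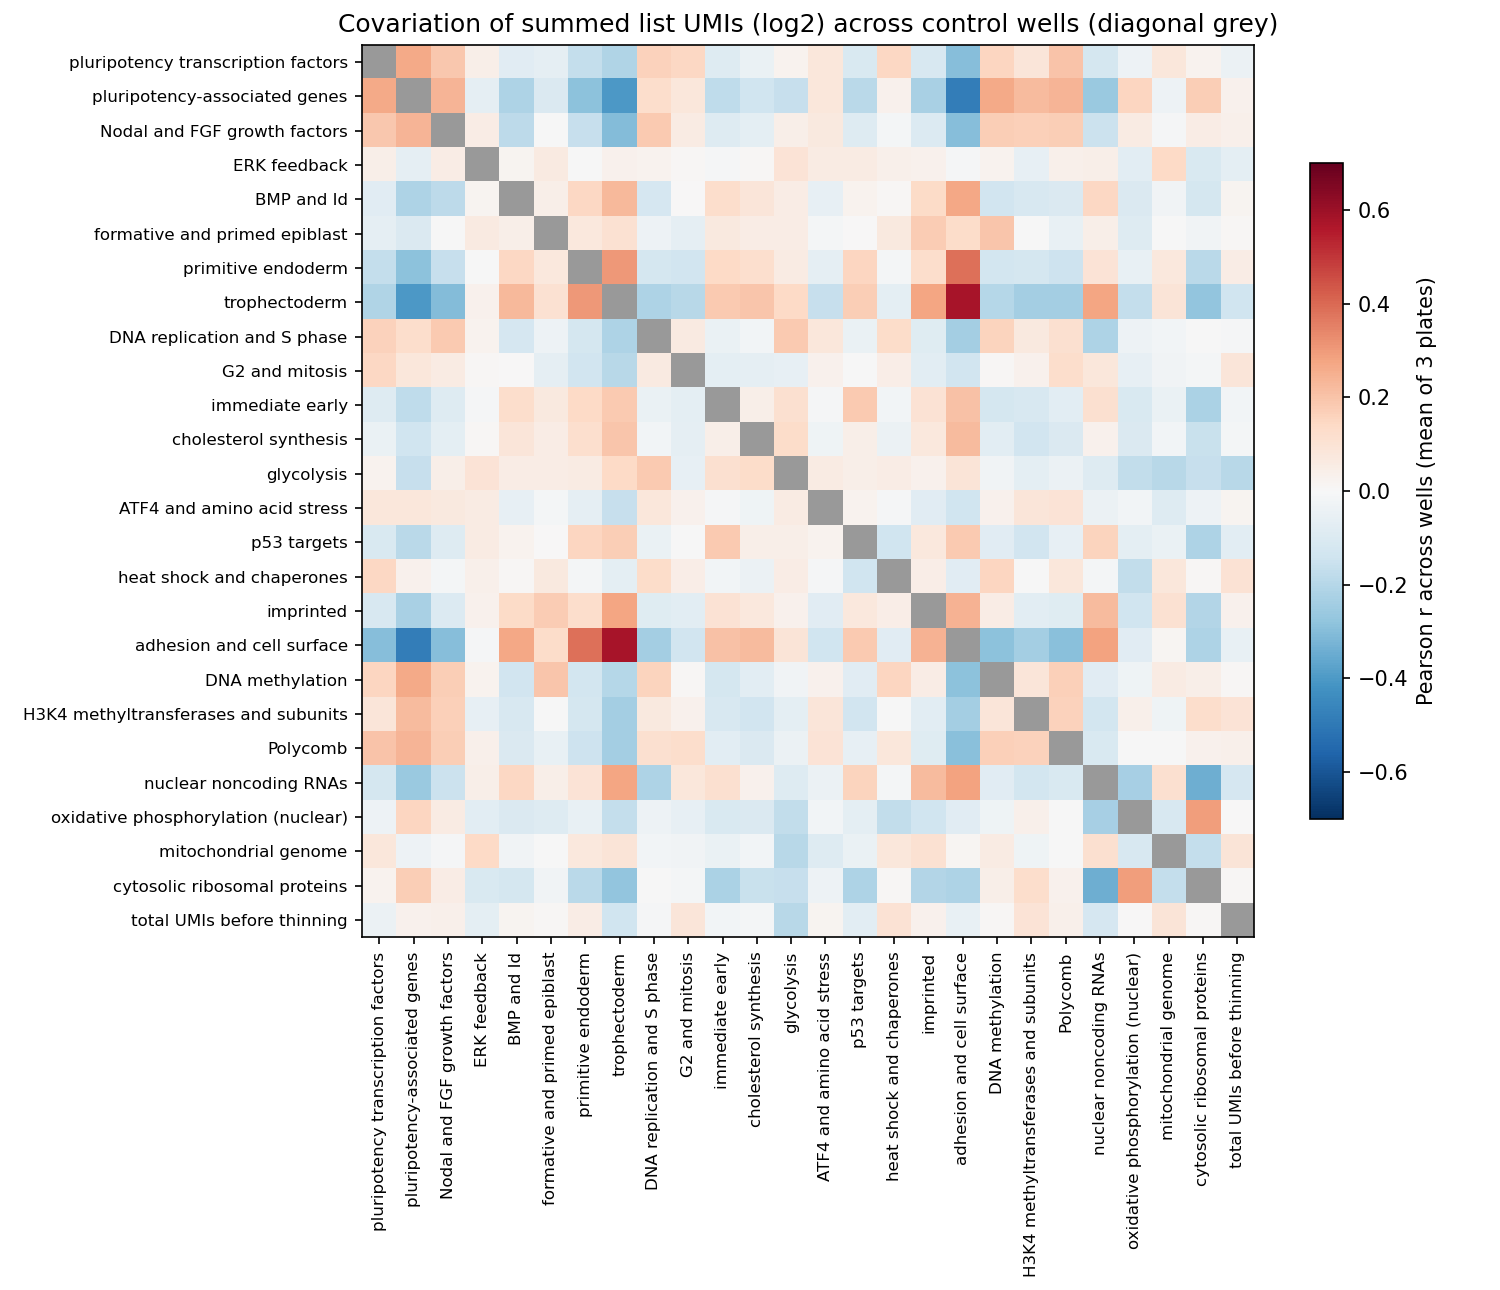
Each square is the Pearson r across thinned control wells between the log2 summed UMIs of 2 lists, as the mean of 3 plates, with red positive and blue negative. The trophectoderm and adhesion lists form the strongest positive square, and the adhesion and pluripotency-associated lists the strongest negative one.

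Cell cycle genes had low correlations with each other. Over 27 genes of G2 and mitosis the median r was 0.071, 0.086 and 0.083, with single pairs from -0.12 to 0.345. Ccnb1 had r of 0.123, 0.141 and 0.222 with Cdc20, the activator of the anaphase-promoting complex, and 0.136, 0.120 and 0.276 with Hmmr, a spindle protein gene. Over 21 S phase genes the median was 0.026, 0.036 and 0.034. Cholesterol synthesis genes, 9 of them frequent enough, had 0.050, 0.044 and 0.083. In the mitochondrial genome, mt-Nd4 had r of 0.624, 0.616 and 0.633 with mt-Cytb, whose transcripts come from the same polycistronic RNA, and -0.37, -0.28 and -0.39 with Ubb.

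Control cells were then set against the mean of deleted and inhibited cells. A difference from only 1 of them can also pass this test. Counts were summed per plate and cell type and tested with edgeR's quasi-likelihood test with the plate as a block. Of 17119 genes tested, 1 passed an adjusted p of 0.05 (0.00584%), beside 1397 at an unadjusted p under 0.05 (8.16%), 746 of them higher in control cells (4.36%) and 651 lower (3.8%). The gene was mt-Rnr2, the mitochondrial large ribosomal RNA. It stood at 6212, 4711 and 5814 CPM in control cells. Deleted cells had 10382, 7564 and 9143 CPM and inhibited cells 7549, 5947 and 7618 CPM, and it was lowest in control cells on every plate. The median mitochondrial share of kept wells moved the same way, at 3.11, 3.06 and 3.18% in control, 4.16, 3.81 and 3.87% in deleted and 3.48, 3.24 and 3.42% in inhibited cells, and its part in the result was not tested. Control cells minus the others was -0.54 ± 0.035 (log2, SE; adjusted p = 0.00035, edgeR). Without plate 2 it did not pass (adjusted p = 0.0971, edgeR). With no plate block 0 genes passed in edgeR, beside 768 at an unadjusted p under 0.05. Mitochondrial UMIs also enter the rule for keeping wells. DESeq2 called 177 genes (99 higher and 78 lower in control cells, 1.03%), and edgeR on wells thinned before summing called 50 of 11825 (0.423%), 37 of them higher in control cells (0.313%) and 13 lower (0.11%), so a low count here does not show that the types are alike.

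None of the 4 markers passed. Tdgf1 was 0.24 ± 0.057 higher in control cells on the log2 scale (adjusted p = 0.32, edgeR), Dppa5a 0.25 ± 0.076 (0.451) and Sox2 0.19 ± 0.072 (0.557), while Pou5f1 was at -0.10 ± 0.095 (0.86). Detection of Tdgf1 in deleted cells was 64.0, 62.5 and 68.0% of thinned wells and in inhibited cells 68.9, 67.0 and 69.8%, under the control share on all 3 plates. The difference was 10.9 ± 2.41 percentage points from deleted and 7.14 ± 1.77 from inhibited cells (SD, n = 3; exact two-sided sign permutation over plates, p = 0.25, the smallest that 3 plates can give). Sox2 was 2.34 ± 1.07 points above deleted cells on all 3 plates (exact permutation p = 0.25) and -0.48 ± 2.84 from inhibited cells (p = 1). Pou5f1 was 0.063 ± 1.11 points from deleted cells (exact permutation p = 1) and -2.57 ± 2.96 from inhibited cells (p = 0.25), and Dppa5a was 0.645 ± 0.58 (p = 0.5) and 1.71 ± 1.09 points (p = 0.25) from them.

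None of the 31 fixed gene lists tested, among which the mitochondrial genome is not one, held a gene that passed. Of 18 pluripotency transcription factors 7 were above 0, with a median log2 difference of -0.06, and of 28 G2 and mitosis genes 15 were above 0, with a median of 0.01, beside 0.00123 over all genes. Of 13 trophectoderm genes 0 were above 0, with a median of -0.29, and 3 were lower at an unadjusted p under 0.05, the level that 3.8% of all genes reached downward and 4.36% upward. Krt18 was at -0.33 ± 0.093 (adjusted p = 0.403, edgeR) and Krt8 at -0.20 (0.711), and both values turned to 0.01 and 0.11 where wells were thinned before summing. Of 21 cholesterol synthesis genes 4 were above 0, with a median of -0.24 and 6 lower at that level, as were 5 of 16 immediate early and 5 of 16 adhesion genes. Of 10 Nodal and FGF genes 5 were above 0 and 4 were higher at that level. The other types were not alike in these lists. Summed over the trophectoderm list, control, deleted and inhibited cells had means of 914, 1510 and 841 CPM. The adhesion list gave 5746, 6730 and 5665 CPM. In both, control cells were below deleted but not inhibited cells. Cholesterol synthesis gave 719, 984 and 781 CPM and immediate early genes 726, 836 and 839 CPM, with control cells lowest.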

How the data were processed

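Single-cell RNA was measured on 3 plates. Per the labels' protocols, SMARTScribe reagents gave the cDNA and Nextera XT, in modified form, the libraries. The tools named in the submitters' processing notes are Subread 1.4.6-p1, featureCounts and STAR 2.5.2b, with the build mm10. The authors deposited raw UMI counts per gene and well, not normalised, with a report that gives each well's type. The sources used here do not give the counting of reads that match several genes, the use of strand or the transcript end. GENCODE M21 (GRCm38) named 28682 of 29267 identifiers; 585 did not match. Spike-in and reporter sequences, at 0.752, 0.690 and 0.646% of UMIs over all wells of plates 1, 2 and 3, were left out.

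Depth was 25914860 to 43773924 UMIs per plate in control cells. Wells were thinned to 10000 UMIs with a fixed seed for detection shares, variance and correlations of log2(UMIs + 1), and shallower wells were left out; no doublet caller was run. Exact binomial intervals are at the 95% level. Sums per plate and cell type were tested with edgeR 4.0.16 (R 4.3.3; TMM, filterByExpr, quasi-likelihood F test, plate as a block, Benjamini-Hochberg adjustment, threshold 0.05), with DESeq2 1.42.0 as an alternative. Other values used Python 3.11.15, numpy 2.4.6 and scipy 1.17.1. On simulated counts, edgeR recovered most planted changes where the dispersion followed abundance and almost none where all genes shared a common dispersion. All 3 types are on each plate: deviations from type means had r of 0.0782 to 0.141 in the 9 pairs of sums that share a plate and of -0.10 to 0.00858 in the other 18 pairs.

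The members and gene lists were chosen with earlier results of these data known, and so was the rule for named genes. It takes the 4 markers and Kmt2a, the 15 genes with most UMIs, the 15 most variable, up to 4 members of each list with the highest level, defining markers of other cell types, and the closest partners of fixed anchor genes. List members outside it are named as list values only. Partners of Krt18 picked on plate 1, and the Krt18 split, were chosen after their values had been seen. Promoters (RefSeq, GRCm38.p6) were searched for short motifs on both strands. Alternatives changed the tool, filters, block, thinning depth, deepest wells and plates, and those on shallow wells, source wells and the deepest wells in the test of types were added after the data had been seen.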

Additional observations from a re-analysis of the deposited data

Results flagged for a closer look

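Outside the comparisons, 15 wells given as positive controls held a median of 904 UMIs (470 to 4152), above the median of 165 (43 to 438) in the 15 wells without cells. Their UMIs included 192 of Malat1 and 48 of Dppa5a, the latter in 13 wells.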

How the results depend on the processing

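The count of 1 gene called between control cells and the other types was 177 with DESeq2, 108 with no filter on low counts (29206 genes tested) and 50 from thinned wells. It was 0 with no replicate block (768 genes at an unadjusted p under 0.05), so the call rests on the pairing by plate. Leaving out a plate gave 0 to 1, with 0 without plate 2. RLE size factors, stricter well filters and leaving out the deepest 5% of wells each kept mt-Rnr2. From thinned wells, the log2 difference turned to -0.064 for Kmt2a, 0.0066 for Krt18 and 0.11 for Krt8. Detection moved with depth. At 5000 UMIs, 20000 UMIs and unthinned it was 23.5, 59.4 and 72.6% for Pou5f1, 38.6, 70.0 and 73.6% for Sox2, and 61.1, 84.7 and 86.7% for Tdgf1. Requiring 2 UMIs gave 12.4, 31.2 and 57.4% for these genes. For Dppa5a it was 98.3% at 5000 UMIs and 98.3% with 2 UMIs. The median r of the G2 list (0.0803) was 0.0596 at 5000 UMIs, 0.118 at 20000, 0.124 unthinned and 0.0914 without the shallowest 50% of wells. The transcription factors (0.0314) gave 0.0254, 0.040 and 0.0461 under the first 3 of these. The adhesion list (0.112) gave 0.0886 at 5000 UMIs and 0.135 unthinned. The trophectoderm list (0.242) ranged from 0.179 to 0.256 over settings and from 0.198 to 0.294 without a plate. The causes were not tested. Of 240 named genes, 192 kept their CPM within 1 SD where each well counted equally, and 229 without the deepest wells. Of the 15 most variable genes, the ones for which alternatives were run, none had its excess variance turn negative.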
